A study of Mus musculus with 12 samples.

Results

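The genes described here are 10 regulators and markers of the epithelial-to-mesenchymal transition (EMT), followed in mouse embryonic stem (ES) cells cultured with and without added L-proline. They are the transcription factors Snai1, Snai2, Zeb1, Zeb2, Twist1 and Twist2, the mesenchymal proteins vimentin (Vim) and S100a4, and the epithelial regulators Esrp1 and Grhl2. The members were taken as every probe set whose only platform gene symbol was 1 of these names, which gave 23 of the 45101 probe sets and 10 of the 18193 named genes. A single probe set read 5 of the genes, whereas Snai2 had 2, Vim 3, Zeb1 4, Grhl2 4 and Zeb2 5.

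The series holds 12 Affymetrix expression arrays of TBV2, a wild-type ES cell line of strain 129/SvP. The 6 control arrays came from untreated cells (named ESCs by the submitters), and the 6 proline arrays from cells given 500 µM L-proline (named PiCs). Both groups were plated sparsely on gelatin with no feeder layer. The 5 days of culture took place with leukemia inhibitory factor (LIF) in the medium and, per the growth protocol, no non-essential amino acids. All arrays come from 1 cell line. Each group has biological replicates 1 and 2, each measured on 3 arrays lettered a to c. The labels do not say what the letters mean, so the 3 arrays were averaged, and each replicate value below is such a mean. A difference between groups is printed with ± its moderated standard error (SE) from limma, with n = 2 biological replicates per group. The labels do not state whether replicates were separate cultures, so the p-values reflect the spread of these 4 means alone, and that spread may be technical.

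During EMT, cells of an epithelial sheet lose junctions and polarity and become motile. SNAI and ZEB zinc finger proteins bind E-box DNA, a short motif whose core is CAGGTG or its complement CACCTG, and repress epithelial genes such as E-cadherin. TWIST proteins are basic helix-loop-helix factors that also bind E-boxes, GRHL2 and ESRP1 maintain the epithelial state through transcription and through splicing respectively, and vimentin forms the intermediate filaments typical of mesenchymal cells. In the embryo the pluripotent epiblast is an epithelium, and its cells leave it through an EMT at the primitive streak. ES cells given L-proline have been described as motile and mesenchymal-like, which is the question these genes bear on.

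Values are log2 signals, on which 1 unit is a 2-fold difference. Signals of different probe sets are not comparable as levels. The 40th percentile of probe set means, 5.36, marks dim signals here: a probe set below it may be reading background, so folds from there are approximate. Tests were limma's two-sided moderated tests across all genes, each represented by its brightest probe set, with Benjamini-Hochberg adjustment and a threshold of 0.05. In this comparison 794 genes passed, which is 4.36% of genes. A test of every probe set by itself passed 45 of 45037 (0.0999%). Every call named below comes from the gene test, and with any 1 of the 4 biological replicates removed limma passed 0 genes of the array. At an unadjusted p under 0.05 there were then 2766 (control 1 removed), 3544 (control 2), 3676 (proline 1) and 2890 (proline 2).

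The ES cell markers fixed for the check, which include Pou5f1, Sox2 and Nanog, had 0 of 12 members under the dim level, and their mean signal was 12.43 and 12.51 in control replicates 1 and 2 and 12.19 and 12.13 in proline replicates 1 and 2. Of these 12, Esrrb and Zfp42 fell (1.34% of all genes), 0 rose (3.03% of all genes) and 10 did not pass. Below 0 were 10 of the 12 (56.1% of all genes), and the 2 above it were Lin28a and Dnmt3b. An unadjusted p under 0.05 was found for 7 (22.1% of all genes), and the list median was -0.32. Markers of fibroblasts, which express vimentin and Twist genes, had 13 members on the array, of which limma passed 0 (4.36% of all genes). Decorin (Dcn, 0.77 ± 0.16) was the 1 of these 13 with an unadjusted p under 0.05, beside 22.1% of all genes. Its other probe set, dim in both groups, measured -0.10. Lum, Postn, Fap, Col3a1 and Pdgfra of this list were dim in all 4 biological replicates, and the list's mean signal was 5.85, 5.64, 5.43 and 6.07 in the same order. The list's median difference, replicate 2 minus replicate 1, was -0.24 in controls and 0.56 after proline. In bulk RNA, a change in the number of cells of a type and a change of RNA per cell cannot be told apart.

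Among the 10 member genes, 1 passed, the increase in Twist1, where 3.03% of all genes rose, and 0 fell, where 1.34% of all genes did. The other 9 did not pass. An unadjusted p under 0.05 was found for 5 of the 10 and for 22.1% of all genes. Zeb1, Twist1 and Esrp1, 3 of the 10, measured 2-fold or more, as did 6.93% of all genes. The differences went both ways. Twist1, Twist2, Zeb2, Snai1, Esrp1 and Grhl2 read higher after proline in the brightest probe set, and Zeb1, Snai2, Vim and S100a4 read lower. The median of the 10 differences was 0.17, against -0.03 over all genes. The 6 proline arrays lay wholly above the 6 control arrays in 5 of the 23 probe sets (10.1% of all probe sets) and wholly below them in 3 (9.08% of all). Together these are 34.8% of the member probe sets, where 19.1% of all probe sets were so separated. Of the 23, 0 passed in the probe set test. The 4 pairwise differences of biological replicates had one sign in the brightest probe set of 7 of the 10 genes, as in 52.7% of all genes. Those of Snai1, Vim and Grhl2 had both signs.

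**Figure D1:**
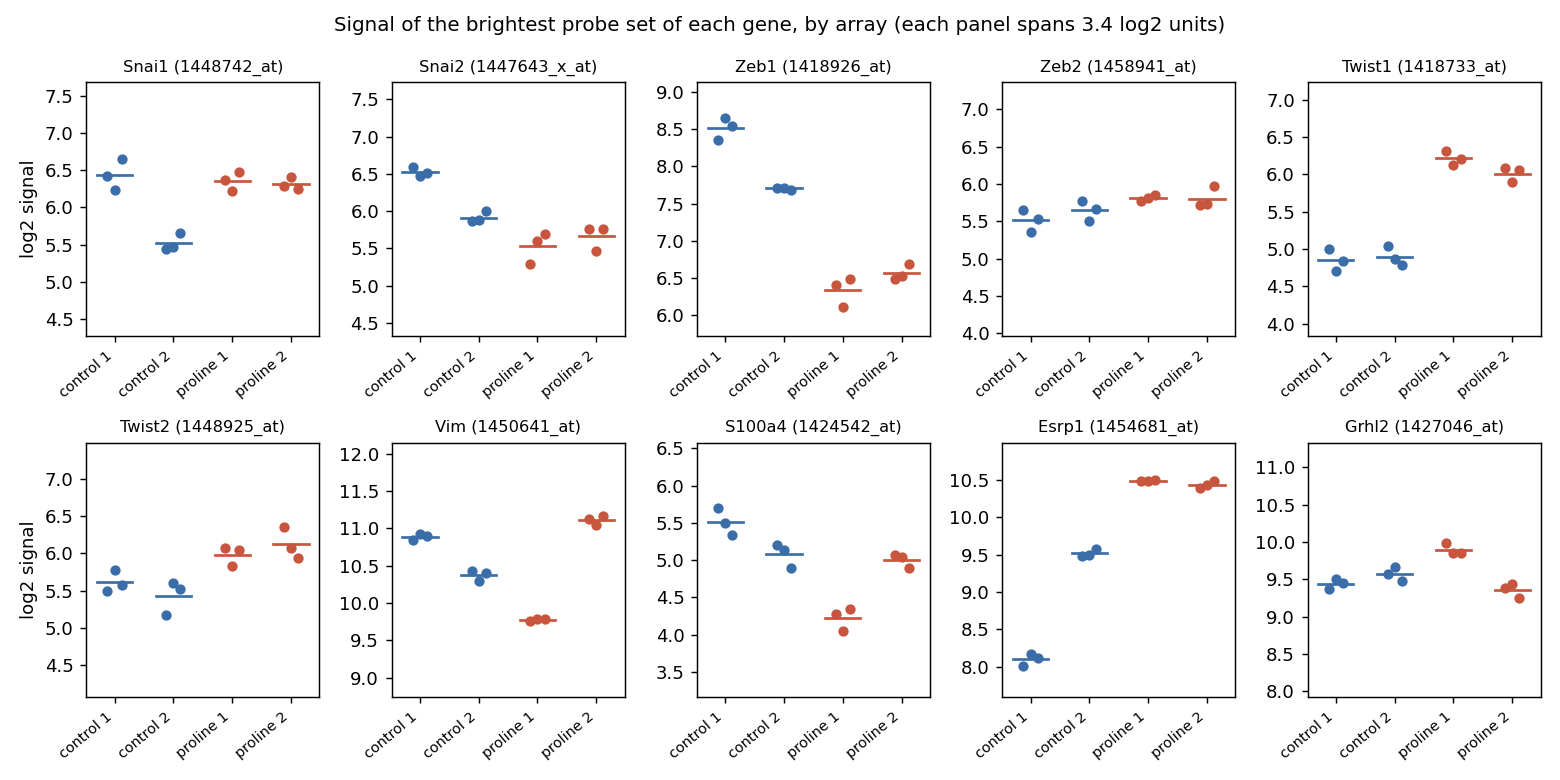
Log2 signal (vertical axis) of the brightest probe set of each of the 10 genes on the 12 arrays, with 3 arrays per biological replicate (points) and their mean (bar), controls in blue and proline in red. Twist1 and Esrp1 sit higher and Zeb1 sits lower in both proline replicates, whereas Vim and S100a4 differ between proline replicates 1 and 2.

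Twist1, a basic helix-loop-helix factor of cranial mesenchyme and neural crest, rose after proline. Its 1 probe set (1418733_at) read 4.85 in control replicate 1 and 4.89 in control replicate 2, then 6.22 and 6.01 in proline replicates 1 and 2. The control replicates were within 0.04 of each other and under the dim level, and both proline replicates were above it. The log2 change was 1.24 ± 0.13 (limma adjusted p = 0.0289), a measured 2.37-fold, between 4.87 ± 0.03 in control and 6.11 ± 0.15 after proline (mean ± SD, n = 2). In the probe set test, which adjusts over more features, the adjusted p was 0.0559. Removing a control left 1.22 (limma adjusted p = 0.138, control 1) and 1.26 (0.0760, control 2). Removing a proline replicate left 1.14 (0.0617, proline 1) and 1.35 (0.0803, proline 2).

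Twist2, its close paralog and a regulator of dermal mesenchyme, measured 0.53 ± 0.13 and did not pass (limma adjusted p = 0.111). Probe set 1448925_at read 5.62 and 5.43 in controls and 5.98 and 6.12 after proline. The 6 proline arrays (5.83 to 6.35) were all above the 6 control arrays (5.18 to 5.78), as for Twist1.

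Zeb1, the zinc finger repressor of epithelial genes, had the largest decrease among the 10 genes. Probe set 1418926_at read 8.51 in control replicate 1 and 7.70 in control replicate 2, and 6.34 and 6.57 in proline replicates 1 and 2. All 6 proline arrays (6.12 to 6.69) were below all 6 control arrays (7.69 to 8.64), and the control replicates lay 0.81 apart. The log2 change of -1.65 ± 0.30, a measured 3.14-fold, did not pass (limma adjusted p = 0.0605), and the group values were 8.11 ± 0.57 and 6.46 ± 0.17 (mean ± SD, n = 2). The call rests on settings: Zeb1 passed with dim genes left out (adjusted p = 0.0425) and with an intensity trend in the variance (0.0429). It did not pass with quantile normalization (limma adjusted p = 0.0567), median centring (0.0621) or the median over probe sets (0.0548), nor in the probe set test (0.101). With 1 replicate left out, the log2 change ran from -2.06 to -1.25.

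A further Zeb1 probe set, 1446127_at, read 6.77 and 6.14 in controls and 4.39 and 4.61 after proline, so that the proline values fell under the dim level. Its difference was -1.95 ± 0.25. The limma adjusted p was 0.0664 in the probe set test, 0.0685 with quantile normalization and 0.0675 with median centring. It was 0.0459 with dim probe sets left out and 0.0409 with an intensity trend. The remaining Zeb1 probe sets showed little: 1443005_at had a difference of -0.22 ± 0.11, and 1420243_at, which was dim in every replicate, one of -0.04 ± 0.12. The Zeb1 difference is therefore carried by 2 of 4 probe sets, and the median over the gene's probe sets gave -1.09. What part of the transcript each probe set reads was not analysed here.

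Zeb2, the paralog that binds the same E-box, measured above 0 in every probe set. Its brightest probe set, 1458941_at, represents the gene in the test and measured 0.23 ± 0.12 (limma adjusted p = 0.355), with 5.51 and 5.65 in controls and 5.81 and 5.80 after proline. Probe set 1422748_at read 4.45 and 4.23 in controls, both dim, and 5.81 and 5.55 after proline. All 6 proline arrays (5.38 to 6.06) were above the 6 control arrays (4.12 to 4.50). The mean signal of this probe set was also under the dim level, so its difference is approximate. Its difference of 1.34 ± 0.15 had a limma adjusted p of 0.0603 in the probe set test and did not pass, whereas it passed with an intensity trend (0.0368). It did not pass with quantile normalization (limma adjusted p = 0.0650) or median centring (0.0607), and it has no value with dim probe sets left out.

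The other 3 Zeb2 probe sets were dim in all replicates. Their differences were 0.64 ± 0.11 (1434298_at), 0.38 ± 0.11 (1456389_at) and 0.14 ± 0.13 (1454200_at), so that all 5 probe sets of Zeb2 were above 0 and all 4 of Zeb1 below it. Whether the Zeb1 and Zeb2 differences differ from each other was not tested.

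**Figure D2:**
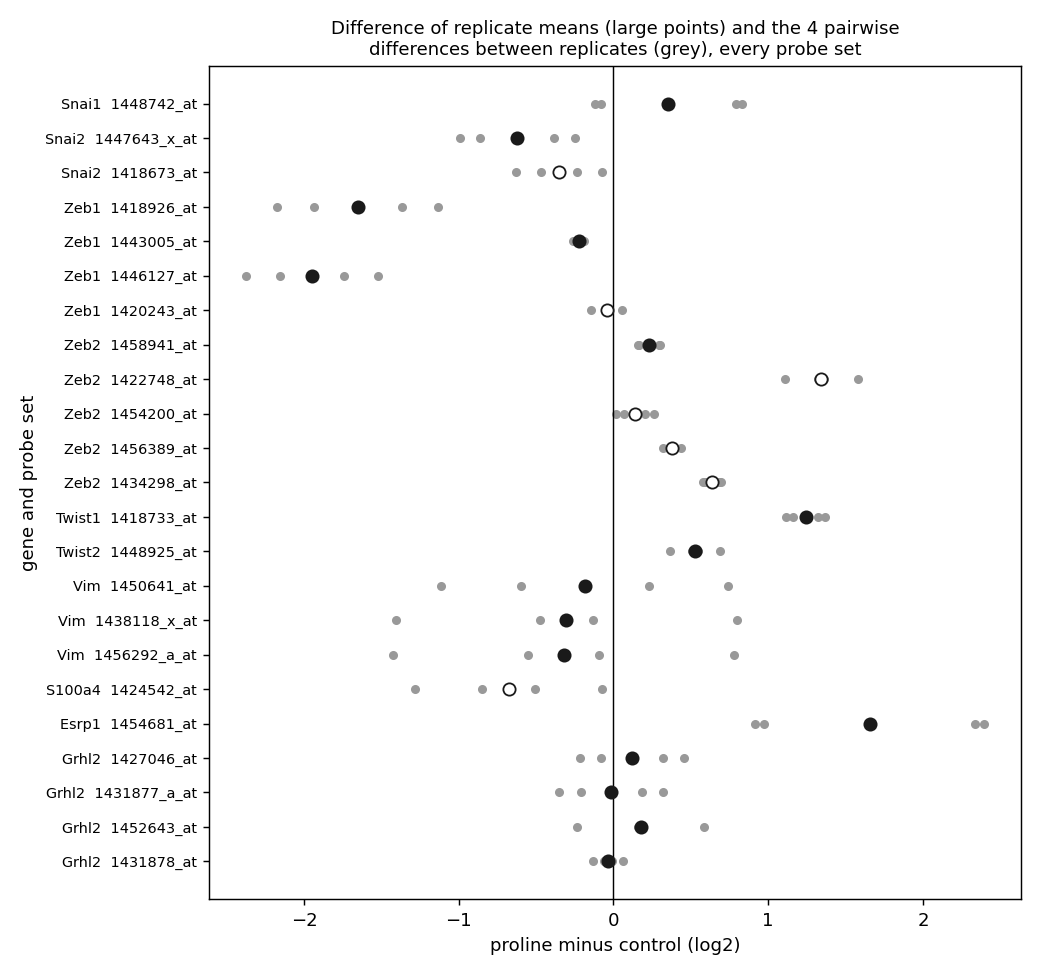
Difference between the proline and control means (log2, horizontal axis) for each of the 23 probe sets, as a large point, filled where the probe set's mean signal is above the dim level and open where it is under it, with the 4 pairwise differences between biological replicates in grey. The 4 Zeb1 probe sets lie at or below 0 and the 5 Zeb2 probe sets above it, and the grey points of the 3 Vim probe sets lie on both sides of 0.

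Snai1, the factor that drives the EMT of gastrulation, showed no shared direction. Probe set 1448742_at read 6.43 in control replicate 1 and 5.52 in control replicate 2, and 6.35 and 6.31 after proline. Control replicate 1 was level with both proline replicates and control replicate 2 was apart from the other 3. The log2 change was 0.36 ± 0.32 (limma adjusted p = 0.615), or -0.10 without control replicate 2 and 0.81 without control replicate 1. Snai1 is the 1 member with an E-box of the CAGGTG type in the 250 bases before its start among the 6 members with a promoter in the RefSeq table. SNAI1 is known to bind its own promoter, so the stretch is shown (RefSeq, GRCm38.p6, plus strand, chr2:167538059-167538084, motif in capitals, beginning 126 bases before the start).
Snai1: agcccaggcgCACCTGctccggtctc

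Snai2, also called Slug and active in neural crest, read lower in its brighter probe set. The values of 1447643_x_at were 6.52 and 5.91 in controls and 5.53 and 5.66 after proline, with the 6 proline arrays (5.29 to 5.76) below the 6 control arrays (5.86 to 6.59). The log2 change was -0.62 ± 0.23 and did not pass (limma adjusted p = 0.223). The suffix x marks a probe set that may also bind other transcripts. The other probe set, 1418673_at, was dim in all replicates and measured -0.35 ± 0.18. Control replicate 2 was below control replicate 1 in both, by 0.61 and 0.39.

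Vimentin was bright in both groups and differed more between the proline replicates than between the groups. Probe set 1450641_at read 10.88 and 10.37 in control replicates 1 and 2, 9.77 in proline replicate 1 and 11.11 in proline replicate 2. The lowest and the highest of the 4 values of this probe set were thus both proline. The difference between groups was -0.19 ± 0.49 (limma adjusted p = 0.882), beside 1.34 between proline replicates 2 and 1. Against control replicates 1 and 2, proline replicate 1 measured -1.11 and -0.60, and proline replicate 2 measured 0.23 and 0.74.

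The other Vim probe sets, 1438118_x_at and 1456292_a_at, were designed on a shared sequence record and are not independent of each other. They measured -0.31 ± 0.54 and -0.32 ± 0.55, and proline replicate 2 exceeded proline replicate 1 by 1.27 and 1.33. Unlike in 1450641_at, their highest value was control replicate 1, and proline replicate 2 minus control replicate 1 was -0.13 and -0.09. All 3 probe sets placed the replicates in one order within each group, with control replicate 1 above control replicate 2. The 3 arrays of a replicate had an SD of at most 0.07 in 1450641_at, and of up to 0.51 in 1438118_x_at and 0.37 in 1456292_a_at.

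S100a4, a calcium-binding protein also known as fibroblast-specific protein, also had its lowest value in proline replicate 1. It read 5.51 and 5.08 in controls, 4.23 in proline replicate 1 and 5.00 in proline replicate 2 (1424542_at). Both group means were under the dim level. The log2 change of -0.68 ± 0.31 did not pass (limma adjusted p = 0.306). Over the 12 arrays the signals of Vim and S100a4 correlated at r = 0.758, a description in which arrays of one replicate are repeats.

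Esrp1, the splicing regulator that keeps epithelial isoforms of Fgfr2 and Cd44, had the largest increase among the 10 genes. Probe set 1454681_at read 8.10 in control replicate 1, 9.52 in control replicate 2, and 10.49 and 10.44 in proline replicates 1 and 2. The proline replicates lay 0.05 apart and the controls 1.42 apart. All 6 proline arrays (10.39 to 10.50) were above all 6 control arrays (8.01 to 9.58). The log2 change of 1.65 ± 0.48, a measured 3.15-fold, did not pass (limma adjusted p = 0.144), and the group values were 8.81 ± 1.01 and 10.46 ± 0.04 (mean ± SD, n = 2). It was 0.94 without control replicate 1 (adjusted p = 0.148) and 2.37 without control replicate 2 (adjusted p = 0.0519). These arrays read total signal of a gene, so the splicing that Esrp1 controls was not analysed here.

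Grhl2, the transcription factor that sustains E-cadherin and claudin expression, had a small measured difference. Its brightest probe set (1427046_at) read 9.44 and 9.57 in controls and 9.89 and 9.36 after proline, with proline replicates on both sides of the controls. The log2 change was 0.12 ± 0.21 (limma adjusted p = 0.821). The differences of the other 3 probe sets ran from -0.03 to 0.17.

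Zeb1 and Esrp1 took opposite order over the biological replicates. Control replicate 1 had the highest Zeb1 and the lowest Esrp1, control replicate 2 was intermediate in both, and the proline replicates had the lowest Zeb1 and the highest Esrp1. Over the 12 arrays their signals correlated at r = -0.963, which describes 4 biological replicates on arrays that share them. Snai2 went with Zeb1 (r = 0.909) and against Esrp1 (r = -0.948). Twist1, which did not differ between controls, correlated at -0.936 with Zeb1. An array control for intact RNA, beta-actin at the 5' end minus the 3' end, read -0.90 and -0.50 in control replicates 1 and 2 and -0.66 and -0.24 in proline replicates 1 and 2. The 18S ribosomal RNA control had a proline minus control difference of -1.35. Its second replicate minus the first was -0.7 in controls and -1.39 after proline. The part of either in these values was not tested.

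**Figure D3:**
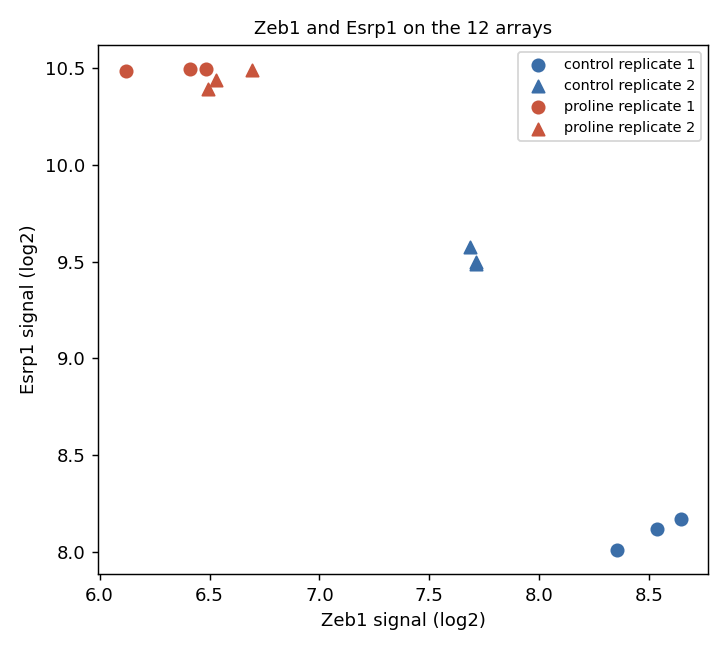
Log2 signal of Zeb1 (horizontal axis) against that of Esrp1 (vertical axis) on the 12 arrays, controls in blue and proline in red, circles for replicate 1 and triangles for replicate 2. The arrays form 3 groups, with control replicate 2 between control replicate 1 and the 6 proline arrays.

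For members whose replicate means spanned at least 1 log2 unit, the genes most alike over the 12 arrays were found by Pearson correlation, as a description. For Zeb1 they were Cir1 (r = 0.993), Wdr20rt (0.992) and Tgfbi (0.991), the last a secreted matrix protein that read 9.85 and 8.26 in controls and 5.76 and 6.19 after proline. For Twist1 they were Tnk1 (0.986), Pdpn (0.986) and Hip1r (0.985), and podoplanin (Pdpn), a membrane glycoprotein, rose by 1.92 (limma adjusted p = 0.0246). Esrp1 was matched most closely by Cacna2d1 (0.997), Lrrn4 (0.996) and 2610528J11Rik (0.994). Vim was closest to Ier3 (0.984), P4ha1 (0.979) and Rab11fip5 (0.974), all lowest in proline replicate 1 of the 4, and S100a4 to Necap2 (0.964), Golm1 (0.959) and Fam214b (0.957).

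Epithelial genes known to be repressed by ZEB and SNAI factors read mostly higher after proline. On the array were 31, of which 8 rose (3.03% of all genes), 0 fell (1.34% of all genes) and 23 did not pass. Of the 31, 29 measured above 0 (43.9% of all genes), with a median log2 change of 1.32 against -0.03 over all genes. The tight junction gene occludin (Ocln) rose by 1.86 ± 0.11 and the polarity gene Crb3 by 1.60 ± 0.13 (limma adjusted p = 0.0246 for both). Marveld2, which encodes the tricellular junction protein tricellulin, rose by 2.63 ± 0.27 from a dim control signal at 5.29 in replicate 1, and the membrane trafficking gene Mal2 by 2.41 ± 0.25 from 3.16 and 3.71, also dim. The other 4 that rose were Cldn7, Cldn3, Epcam and Tjp3. A further Epcam probe set measured 0.22 against 1.25 in the brightest. In the probe set test 1 of the 31 genes passed by its brightest probe set.

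E-cadherin (Cdh1), the classical SNAI and ZEB target, was bright in all replicates and measured 0.48 ± 0.14 (limma adjusted p = 0.137). It read 11.46 and 11.68 in controls and 11.996 and 12.11 after proline, higher in both proline replicates than in either control. The simple epithelial keratins Krt8 (2.06 ± 1.30) and Krt18 (2.39 ± 1.20) did not pass, and control replicate 2 was above control replicate 1 by 3.23 and 3.16 in them. The second control exceeded the first in 23 of the 31 genes (median 0.30), and the second proline replicate exceeded the first in 26 (median 0.35). Between single replicates, the list's median difference was lowest at 0.69 (proline replicate 1 minus control replicate 2) and highest at 1.76 (proline replicate 2 minus control replicate 1). The beta-actin end difference moved the way of this list, 0.40 between the controls, 0.42 between the proline replicates and 0.25 between the groups. The same difference for Gapdh was 0.29, 0.26 and 0.06, and the part of either was not tested.

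**Figure D4:**
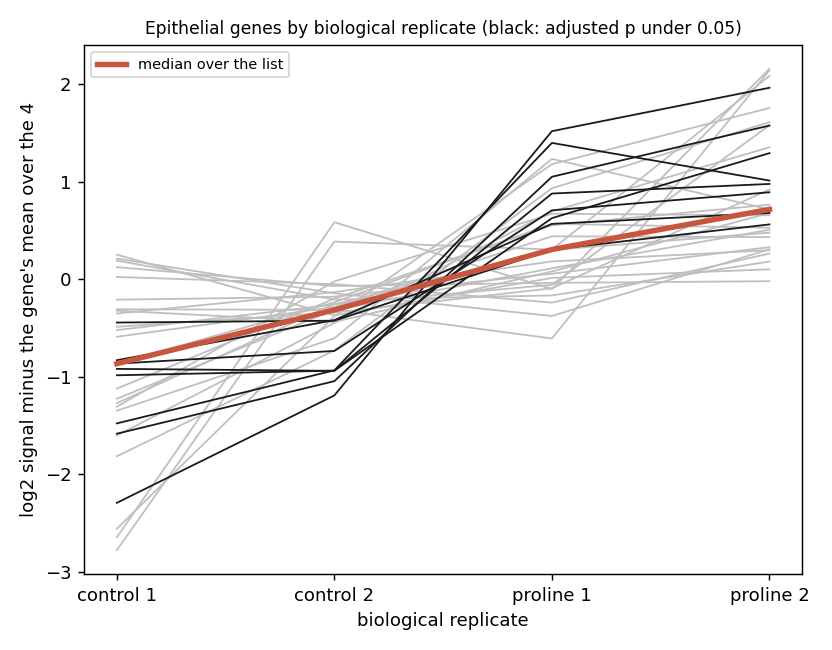
Log2 signal of the 31 epithelial genes in the 4 biological replicates, each minus the gene's mean over the 4, with the 8 genes past the threshold in black, the others in grey and the list median in red. Lines join values of one gene and carry no order in time; both proline replicates lie above both controls in the median, and control replicate 2 lies above control replicate 1.

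The promoters of these genes were searched for the E-box bound by SNAI and ZEB proteins, CAGGTG or CACCTG (one motif on either strand), in the 250 bases before each RefSeq start. It was present for 5 of the 7 genes that rose and had a promoter in the table, and for 9 of the 14 that did not pass, so that genes that rose and genes that did not pass both carried it. Of all 27025 genes in the table, 19.4% had it in a promoter, and of all 32851 promoters 17.2% held it. The list was chosen as known targets, so its share is no independent evidence, and a match is a description, not a binding site. Crb3, Cldn7, Ocln and Tjp3, which rose, are shown 5' to 3' on the gene's strand, with the motif in capitals, from 10 bases before the first match to at most 10 after the last, for the first listed transcript with a match (RefSeq, GRCm38.p6).
Crb3, chr17:57062073-57062200, plus strand: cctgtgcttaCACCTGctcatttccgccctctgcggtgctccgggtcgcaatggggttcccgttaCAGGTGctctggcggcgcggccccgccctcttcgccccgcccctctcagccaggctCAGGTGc
Cldn7, chr11:69965314-69965379, plus strand: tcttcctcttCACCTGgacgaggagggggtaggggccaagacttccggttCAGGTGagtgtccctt
Ocln, chr13:100552551-100552721, minus strand: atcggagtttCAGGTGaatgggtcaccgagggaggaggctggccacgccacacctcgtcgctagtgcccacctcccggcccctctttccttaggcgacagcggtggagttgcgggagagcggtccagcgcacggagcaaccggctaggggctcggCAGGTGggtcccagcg
Tjp3, chr10:81291674-81291699, minus strand: cacaaggggtCAGGTGtacagacagg

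In Crb3 the matches begin 118, 63 and 7 bases before the start, in Cldn7 97 and 57, in Ocln 213 and 68 and in Tjp3 108, each counted from the start of the transcript shown. Crb3 read 8.23 and 8.36 in controls and 9.80 and 9.99 after proline, and Ocln 6.68 and 6.66 against 8.48 and 8.57. The second control minus the first was 0.13 in Crb3 and -0.02 in Ocln. Cldn7, in contrast, read 7.28 and 8.38 in the controls and 11.09 and 11.53 after proline.

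Other epithelial transcription factors measured below 0 in 9 of 13, where 56.1% of all genes did. In this list of GRHL, OVOL and epithelial factors, Grhl3, a paralog of Grhl2 needed for skin barrier formation, fell by 1.27 ± 0.15 on the log2 scale (limma adjusted p = 0.0319). Of the list 0 rose (3.03% of all genes) and 12 did not pass, where 1.34% of all genes fell, and the list median was -0.30. Ovol2, a repressor of Zeb1 in epithelia, measured 0.66 ± 0.12 (adjusted p = 0.0582), and Klf4, which is also a naive pluripotency factor, -2.41 ± 0.41 (adjusted p = 0.0553). Ovol1, Elf5, Ehf, Trp63 and Foxa1 were dim in all 4 replicates.

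Splicing regulators of EMT other than Esrp1 numbered 12 on the array, of which limma passed 0 (4.36% of all genes). An unadjusted p under 0.05 was found for 4 (22.1% of all genes). Khdrbs3 measured 0.69 ± 0.13 (adjusted p = 0.0683) and Rbm47, an RNA-binding protein, -0.79 ± 0.17 (adjusted p = 0.0798), while the lowest and highest of its 3 probe sets were -1.004 and -0.000685. The list median was 0.05. The co-repressors through which SNAI and ZEB proteins act include Ctbp1, Ctbp2, Hdac1, Hdac2 and Kdm1a. Of the 14 in this list 0 passed, beside 4.36% of all genes. An unadjusted p under 0.05 was found for 1 of them (Sin3a, -0.32 ± 0.11, limma adjusted p = 0.202), beside 22.1% of all genes. Their median was 0.07, and 0 of the 14 were dim.

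Among 15 other transcription factors tied to EMT, 2 rose (3.03% of all genes), 1 fell (1.34% of all genes) and 12 did not pass. Hmga2, an architectural chromatin protein of embryonic cells, rose by 1.84 ± 0.15 (limma adjusted p = 0.0246), from 8.75 and 8.76 in controls to 10.43 and 10.76. Tcf12, an E-protein partner of Twist factors, rose by 0.73 ± 0.11 (adjusted p = 0.0471), and its 5 probe sets measured from 0.07 to 0.88. The T-box factor Tbx3, also part of the naive pluripotency network, fell by 2.64 ± 0.42 (adjusted p = 0.0493). Its 5 probe sets measured from -2.64 to -0.38. With each array centred on its median, 0 of this list fell, and with the median over probe sets 1 rose and 0 fell. Foxc1, Foxc2, Prrx1 and Sox9 were dim in all 4 replicates.

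TGF-beta signalling, the main inducer of SNAI and ZEB genes, held 0 genes past the threshold among 18 in limma, beside 4.36% of all genes. The list median was 0.31. The 3 with an unadjusted p under 0.05, beside 22.1% of all genes, were Smad4 (0.58 ± 0.11, adjusted p = 0.0668), the co-receptor Tgfbr3 (1.53 ± 0.32, adjusted p = 0.0805), with a further probe set at 0.05, and the latent TGF-beta binding protein Ltbp1 (0.83 ± 0.19, adjusted p = 0.0940), whose lowest probe set measured -0.12. Tgfb2 read 5.17 and 5.81 in controls, 6.04 in proline replicate 1 and 7.85 in proline replicate 2.

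Mesenchymal effector genes, which encode matrix, adhesion and contractile proteins, included 2 that rose among 25 measured (3.03% of all genes). In this list 0 fell (1.34% of all genes) and 23 did not pass. Above 0 were 15 (43.9% of all genes) and below it 10 (56.1%). N-cadherin (Cdh2), the cadherin gained in EMT, rose by 2.45 ± 0.23 (limma adjusted p = 0.0272), from 5.08 (dim) and 5.61 to 7.64 and 7.94. The gelatinase gene Mmp2 rose by 1.19 ± 0.15 (adjusted p = 0.0365). Tgfbi, also in this list, measured -3.08 and did not pass (limma adjusted p = 0.0604), and its 4 probe sets ran from -3.19 to -2.35. With dim genes left out, or with an intensity trend, 1 gene of the list fell. The list median was 0.27, and its median for the second proline replicate minus the first was 0.43, a direction shared by Vim and S100a4. This direction was not particular to the list: that median was 0.35 for the epithelial genes, 0.37 for the TGF-beta list and 0.56 for fibroblast markers. It was below 0 for the co-repressors (-0.07), the splicing regulators (-0.002) and the neural progenitor markers (-0.07). Cdh11, Col3a1, Mmp3 and Pdgfra were dim in all 4 replicates.

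Intermediate filament genes and their partners, other than vimentin, included 3 that rose (3.03% of all genes). Of 17 measured, the neurofilament genes Nefl (3.13 ± 0.27) and Nefm (4.26 ± 0.47) and nestin (Nes, 2.0 ± 0.24) rose, with limma adjusted p of 0.0246, 0.0301 and 0.0352. Nefm read 4.95 (dim) in control replicate 1. A further neurofilament gene, Nefh, measured -1.44 and did not pass. Of the 17, 0 fell (1.34% of all genes) and 14 did not pass. Above 0 were 11 (43.9% of all genes) and below it 6 (56.1%). The 11 include Krt8, Krt18 and Krt19, which are also in the epithelial list. With dim genes left out, 1 gene of the list fell. The list median was 0.34. Nestin, which assembles into filaments together with vimentin, read 7.66 and 8.26 in controls and 9.82 and 10.10 after proline. In the S100 family around S100a4, S100a13 rose by 1.10 ± 0.13 (limma adjusted p = 0.0340), where 3.03% of all genes rose. Of the 13 measured, 0 fell (1.34% of all genes) and 12 did not pass. S100a10, the annexin A2 partner, read 10.41 and 10.76 in controls, 10.75 in proline replicate 1 and 12.30 in proline replicate 2, and 7 members of the family were dim in all replicates.

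**Figure D5:**
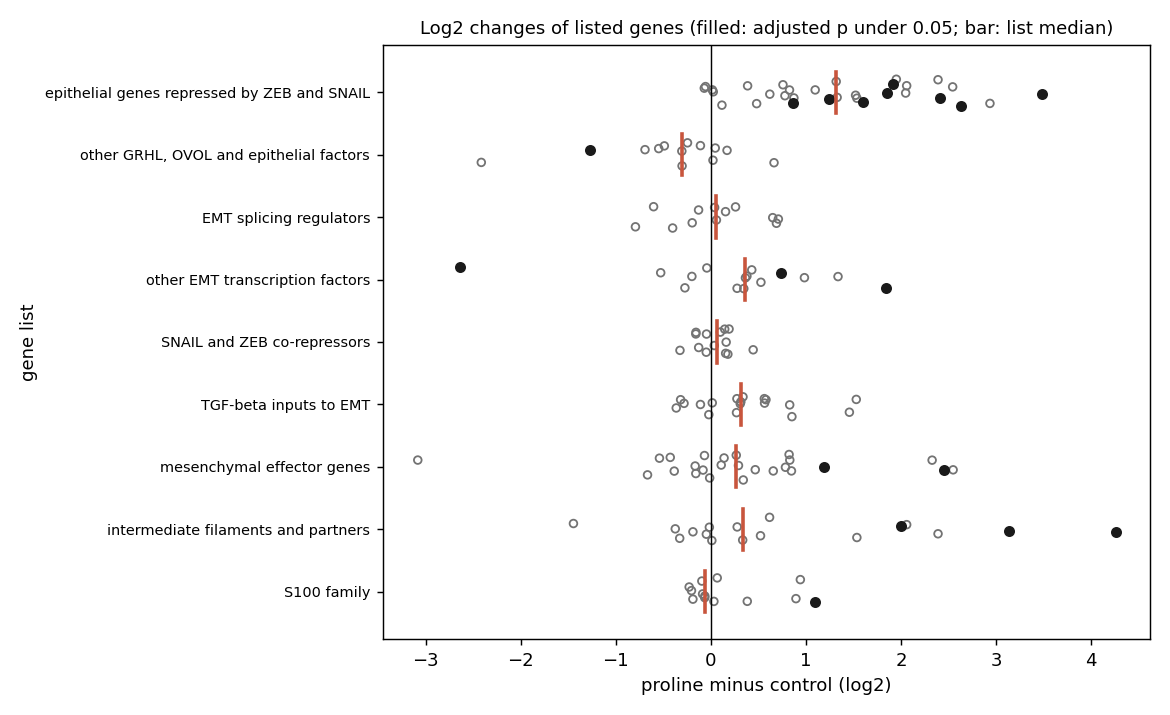
Log2 change after proline (horizontal axis) of each measured gene in 9 lists (vertical axis), filled where the adjusted p is under 0.05, with the list median as a bar. The epithelial genes have a median of 1.32 with 8 filled points, whereas the medians of the other lists lie between -0.30 and 0.36.

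Markers of cell types in which Twist1, Zeb2, Cdh2 or Vim are expressed were read on the same arrays. Beside the counts that follow, 3.03% of all genes rose, 1.34% fell and 43.9% measured above 0. Of primitive streak and mesoderm markers, Eomes (2.51 ± 0.15) and Fgf8 (4.36 ± 0.50) rose among 13 measured, 0 fell and 11 did not pass. The list's mean signal was 5.49 and 5.51 in controls and 6.23 and 6.74 after proline. Fgf8 read 4.65 and 4.73 in controls, both dim, and 8.30 and 9.78 after proline. Of neural progenitor markers, Zfp521, Nes and Fabp7 rose, Tubb3 fell and 6 of 10 did not pass, with mean signals of 5.34, 5.55, 6.04 and 5.92 in the order control 1, control 2, proline 1 and proline 2, and Sox1, Olig2 and Neurog2 dim in all 4. Controls were dim for Zfp521 (4.25 and 4.58) and for Fabp7 (4.36 and 4.65). With the median over probe sets 1 neural marker rose and 1 fell, and the other Zfp521 probe set measured 0.56 against 2.03. Lama1 fell among 13 extraembryonic endoderm markers, 0 rose and 12 did not pass, with mean signals of 6.48, 6.59, 6.68 and 6.95. In this list 10 of 13 measured above 0, among them Dab2 (1.68 ± 0.28, limma adjusted p = 0.0545), Col4a1 (1.02 ± 0.23, 0.0887) and Lamb1 (0.93 ± 0.19, 0.0787), and with the median over probe sets 0 passed. Of 8 trophoblast markers, Eomes rose, 0 fell and 7 did not pass, with a median of 0.06 and mean signals of 6.31, 6.50, 6.61 and 6.85. Tfap2c (-0.69 ± 0.14, limma adjusted p = 0.0731) and Ascl2 (-0.59 ± 0.17, 0.141) were among those below 0. The part of such cells in the differences of Twist1, Zeb2, Zeb1 and Esrp1 was not tested.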

How the data were processed

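Biotin-labelled cRNA of 12 samples was hybridized to Affymetrix arrays, per the labels' protocols. The authors deposited log2 signals of 45101 probe sets (array medians 5.99 to 6.03, values 2.10 to 14.8). The submitters' processing notes name MAS5 and RMA, without saying which made the table. The number of arrays limits the precision.

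The platform annotation gave 1 symbol to 34945 probe sets and several to 932, which stayed unnamed. The 64 array controls were left out. A gene took its probe set of highest mean. Array means per replicate were fitted with lmFit and eBayes (limma 3.58.1, R 4.3.3), with 2 residual and 2.60 prior degrees of freedom. For a single value, 2 against 2, the smallest exact permutation p is 0.333. The fit was also run on simulated data with independent noise. That run checked only the direction and mean size of known changes and set no limit on false or missed calls.

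Alternatives were quantile normalization, median centring, a signal filter, the median over probe sets, single probe sets, an intensity trend, a random block for arrays of a replicate, the replicate block, and leaving out each replicate. Members and lists were chosen with earlier results of these data known. All member probe sets are given. Named list genes are those past the threshold (the 4 of smallest p where over 4 passed, the others by name only) and up to 4 more where fewer than 2 passed. Further names are examples chosen after their values were seen. Plots used matplotlib 3.10.9.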

Additional observations from a re-analysis of the deposited data

How the results depend on the processing

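The count of 794 genes was 351 with the median over probe sets, 45 with every probe set by itself, 3987 with a random block over the 12 arrays and 2039 with the replicate block, and 0 without any single biological replicate. The count of 45 probe sets was 0 with median centring, 546 with the signal filter, 670 with an intensity trend, 7618 with the random block, 3733 with the replicate block and 0 without any single replicate. The member count of 1 gene (Twist1) was 2 with the signal filter, the replicate block or an intensity trend, where Zeb1 was also past the threshold, 5 with the random block, 0 with every probe set by itself and 0 without any single replicate. With the replicate block the adjusted p was 0.0310 for Zeb1 and 0.0102 for Zeb2 probe set 1422748_at; the replicate differences of the groups correlated at r = 0.338 across genes, and 2 numbers cannot show that samples were paired. The random block takes arrays of one replicate as correlated repeats (correlation 0.548). The 8 epithelial genes past the threshold were 22 with the random block, 19 with the replicate block and 1 with every probe set by itself. Without single replicates, the log2 change ran from -0.10 to 0.81 for Snai1, from -0.86 to 0.48 for Vim and from -0.15 to 0.39 for Grhl2, and the other 7 genes kept their direction. No alternative that kept all replicates turned the direction of any of the 10 genes. S100a4 has no value with the signal filter. The cause of these shifts was not tested, except that leaving out a replicate leaves fewer samples. Signals under the 40th percentile limit Twist1 in controls, most Zeb2 probe sets, S100a4 and the weaker Snai2 probe set.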
